A study of Mus musculus with 8 samples.

Results

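The genes described here are 10 factors and receptors of innate-like lymphocytes and gamma-delta T cells, namely Sox13, Blk, Maf, Zbtb16, Tbx21, Eomes, Nfil3, Ncr1, Il1rl1 and Ptgdr2. For each gene, every ATAC-seq peak that touched the gene body or the 25 kb on either side of it was taken. The 10 windows did not overlap, spanned 901542 bp and held 504 of the 565672 peaks in the 4 lists used. Merging the lists wherever peaks overlapped gave 149 regions in the windows, of 180321 regions in all. Of these, 75 touched the body of the gene itself and 117 lay nearer to it than to any other protein-coding gene.

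ATAC-seq marks open chromatin by the cuts of a transposase, and was done on mouse DN3 thymocytes of strain C57BL/6. DN3 is the double-negative stage at which T-cell precursors rearrange the T-cell receptor beta chain and at which gamma-delta cells part from the alpha-beta lineage. One genotype was wild type at N-Me, an enhancer far downstream of Myc through which Notch acts on that gene. The other was homozygous for mutations at GATA sites 1 and 2 of the same enhancer. There were 2 libraries of each genotype, called wild type 1 and 2 and mutant 1 and 2 below. The labels give no age, no sorting scheme and no word on whether the 2 libraries came from separate animals, so the exact tests measure only the spread between libraries. The 4 leukaemia samples of the series were not analysed here.

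Innate-like lymphocytes acquire effector programmes early, without the long maturation of conventional T cells. In gamma-delta T cells that make interleukin 17, SOX13 and c-MAF act as transcription factors and BLK as a signalling kinase. PLZF, the product of Zbtb16, directs natural killer T cells and precursors of innate lymphoid cells. T-BET (Tbx21) and EOMES are the T-box factors of natural killer cells and interferon-gamma producers, and NFIL3 is needed early in innate lymphoid development. Ncr1 encodes NKp46, a receptor of natural killer cells. Il1rl1 encodes ST2, the receptor for interleukin 33, and Ptgdr2 encodes CRTH2, a prostaglandin D2 receptor. Both receptors are carried by group 2 innate lymphoid cells and T helper 2 cells.

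Of the 10 genes, 7 had a called start in every library, namely the transcription factor genes and the kinase gene Blk. A start was taken as called when a peak lay within 1 kb of a transcription start in the RefSeq table, or of either gene end for Blk, Maf and Zbtb16. The 7 genes were Sox13, Blk, Maf, Zbtb16, Tbx21, Eomes and Nfil3. With either gene end used for all 10 genes, the count was 8, Il1rl1 being added by the peak 42 bp past its end. With a peak required over the start itself it was 6, without Eomes, and with fold of 4 or more it was 4. By the rule given first, a start was called in all 4 libraries for 66.8% of 21887 protein-coding genes, so 7 of 10 is close to that background. The count was 9 in wild type 1, 7 in wild type 2, 8 in mutant 1 and 7 in mutant 2. Ncr1 was called in none, Ptgdr2 in wild type 1 only, and Il1rl1 in wild type 1 and mutant 1.

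The letters just before the starts differed between these genes. The 250 bases before the start (GRCm38.p6, RefSeq) are shown for the 2 T-box factors, called in every library, and for the first start of Ncr1, called in none. They are written 5′ to 3′ with each CG dinucleotide in capitals. Tbx21 is on the minus strand at chr11:97115332-97115581, Eomes on the plus strand at chr9:118477939-118478188, and Ncr1 on the plus strand at chr7:4337465-4337714.
Tbx21: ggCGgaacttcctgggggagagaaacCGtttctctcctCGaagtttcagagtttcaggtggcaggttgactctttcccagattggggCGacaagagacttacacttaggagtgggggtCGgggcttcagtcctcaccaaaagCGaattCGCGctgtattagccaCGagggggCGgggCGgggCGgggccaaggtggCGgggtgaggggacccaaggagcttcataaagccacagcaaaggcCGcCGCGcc
Eomes: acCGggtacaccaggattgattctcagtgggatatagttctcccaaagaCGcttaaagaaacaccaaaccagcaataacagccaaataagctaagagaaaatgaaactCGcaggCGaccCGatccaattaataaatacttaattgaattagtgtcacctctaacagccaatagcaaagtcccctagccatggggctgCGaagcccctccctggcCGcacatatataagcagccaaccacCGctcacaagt
Ncr1: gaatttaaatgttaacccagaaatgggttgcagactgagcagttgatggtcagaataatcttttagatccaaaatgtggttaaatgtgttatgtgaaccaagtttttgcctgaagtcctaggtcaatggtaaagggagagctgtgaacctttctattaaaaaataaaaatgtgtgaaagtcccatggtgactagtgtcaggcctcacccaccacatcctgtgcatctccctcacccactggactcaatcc

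Tbx21 had 16 CG dinucleotides, Eomes 8 and Ncr1 0. Among the other listed starts there were 43 at Nfil3 and 31 at Sox13, but 4 at Ptgdr2 and 0 and 3 at the upstream and downstream starts of Il1rl1. Over all protein-coding genes, the 14027 starts called in 4 libraries had a median of 15.0 and the 6144 starts called in none had a median of 2.00. Eomes lay below the lower quartile of starts called in 4 libraries, and the upstream Il1rl1 start below that of starts called in 1 to 3. RefSeq promoters were listed for 7 of the 10 genes, at 9 starts, and not for Blk, Maf or Zbtb16.

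**Figure D1:**
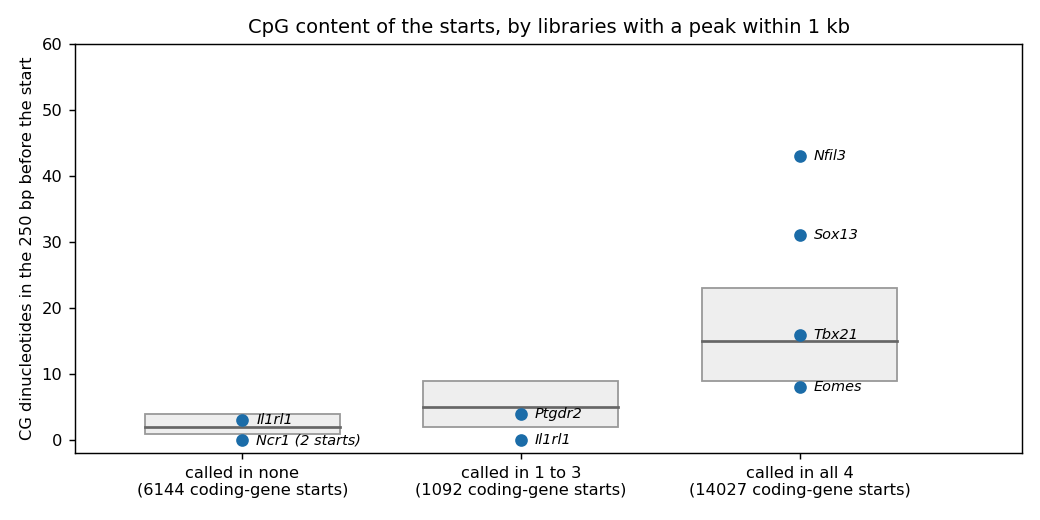
Number of CG dinucleotides in the 250 bases before each listed start (y axis), by how many libraries had a peak within 1 kb (x axis). Points are starts of the members, and boxes give the quartiles and line the median over starts of all protein-coding genes. Nfil3 (43) and Sox13 (31) lie above the box of starts called in all 4 libraries, and both Ncr1 starts are at 0.

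The 2 listed starts of Il1rl1 are shown because they alone among the 9 held letters of the GATA motif, which were searched as AGATAA and TGATAA on both strands and are in capitals here. Both are on the plus strand, at chr1:40429320-40429569 and chr1:40439379-40439628.
Il1rl1 upstream start: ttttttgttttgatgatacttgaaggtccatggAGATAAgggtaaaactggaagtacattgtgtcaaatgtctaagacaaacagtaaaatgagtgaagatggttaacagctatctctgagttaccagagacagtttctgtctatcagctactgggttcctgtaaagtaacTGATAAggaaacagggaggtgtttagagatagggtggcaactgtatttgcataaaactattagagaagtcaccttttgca
Il1rl1 downstream start: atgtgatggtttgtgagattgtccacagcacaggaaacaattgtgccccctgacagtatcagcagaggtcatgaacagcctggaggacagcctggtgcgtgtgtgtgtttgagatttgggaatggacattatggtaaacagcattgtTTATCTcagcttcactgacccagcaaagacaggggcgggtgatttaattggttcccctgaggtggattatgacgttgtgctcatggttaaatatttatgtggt

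The upstream start had 2 matches and the downstream start 1. Such letters stood before 14.6% of all protein-coding starts, 8.72% of those called in 4 libraries and 27.8% of those called in none. Of the other letters searched, TGTGGT (Runx) matched 2 times at each of the 2 overlapping Ncr1 starts and 1 time at the downstream Il1rl1 start (12.4% of all starts hold it). CAGGAAG (Ets) matched once at Tbx21 (10.2% of starts) and CAGCTG (E-box) once at Nfil3 (12.1%). CTTTGAT and ACAAAG (TCF, LEF and SOX, 17.3% of starts) and AGGTGTGA (T-box, 0.997%) matched at none of the 9. These matches describe the letters only.

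Sox13 had the most covered window of the 10. Peaks covered 12521 and 12566 bp in wild type 1 and 2 and 12745 and 13113 bp in mutant 1 and 2, so the genotypes did not overlap, though by a narrow margin. This was 13.8% ± 0.292 of the 92.2 kb window (SD, n = 4 libraries), above the share in 92.4% of protein-coding windows. The number of peaks was 30 and 28 in wild type and 17 and 19 in mutant. The widest region, 2255 bp at chr1:133422270-133424524, spanned the start in every library, with deposited fold enrichment of 2.89 and 2.93 in wild type and 2.99 and 2.96 in mutant. Fold is the authors' value, the signal in a peak over its local background in the same library, and describes a peak within its own list. The strongest region, chr1:133363241-133364408 with fold of 6.83 to 7.40, touched the neighbouring kinase gene Etnk2. Of the 31 regions, 7 lay nearest to Etnk2 and 24 to Sox13.

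Inside Sox13, open sites ran along the gene body. It held 18 regions, of which the 1990 bp region at chr1:133399035-133401024 was the next widest (fold 2.40 to 3.23). Of the 23 Sox13 regions that both wild-type lists held, 4 were called in neither mutant library. Of these 4, 3 reached a fold of 2 in both wild-type libraries. They were chr1:133393224-133393617 (394 bp, fold 2.02 and 2.39) and chr1:133408263-133408476 (214 bp, 2.16 and 2.26) within the gene, and chr1:133432592-133432821 (230 bp, 2.25 and 2.24) 8133 bp outside it. These are weak peaks, between the 7.36 and the 21.7 percentile of fold in their lists.

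Blk, a Src-family kinase best known from B cells, was the window in which mutant libraries covered most in excess of wild type. Peaks covered 8578 and 8725 bp in wild type and 10850 and 10566 bp in mutant, while peak numbers were 14 and 12 against 12 and 12. All 4 libraries shared 11 of the 14 Blk regions. Wild type 1, mutant 1 and mutant 2 each had 1 of the other 3 alone. The outlines of some shared regions were wider in mutant. At the gene end at 63417187 the peak was 646 and 713 bp wide in wild type and 1334 and 1000 bp in mutant, with fold of 5.58 and 5.08 against 4.22 and 4.20. The region at chr14:63376687-63378583 was listed as 2 peaks in each wild-type library and as 1 in each mutant library. The strongest region by its lowest fold lay inside the gene at chr14:63388793-63389603 (fold 6.95, 6.67, 6.02 and 6.56 in wild type 1, wild type 2, mutant 1 and mutant 2). It stood between the 87.9 and the 90.2 percentile of every list. In both wild-type libraries the highest fold of the window was instead at chr14:63426976-63428320, outside Blk and nearest to Fam167a (7.79, 7.39, 5.63 and 6.01).

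Maf is a short gene whose window had a covered share of 5.25%, above that of 49.5% of protein-coding windows. Its window held 4 regions, 3 of them in every library. The largest covered 2162 bp at chr8:115706455-115708616, across one gene end, with fold of 4.50 and 4.49 in wild type and 4.20 and 4.43 in mutant. A 391 bp region lay inside the gene and a 539 bp region 2505 bp beyond it. The remaining region, 364 bp at chr8:115726245-115726608, was called in wild type 2 and both mutant libraries (fold 2.99, 3.02 and 2.90). Covered length was 2414 and 2759 bp in wild type and 3366 and 2733 bp in mutant, so the genotypes overlapped.

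Zbtb16 had the most regions of the 10, in the longest window. Its 184 kb body and flanks held 38 regions, of which 24 were called in all 4 libraries and 29 touched the gene. Per 10 kb this was 1.62 regions, the same as at Ptgdr2. Sox13 (3.36), Tbx21 (2.08), Eomes (2.07) and Nfil3 (1.83) were denser. Blk (1.48), Il1rl1 (1.09), Maf (0.746) and Ncr1 (0.174) were sparser. The covered share was above that of 59.2% of protein-coding windows. Peaks numbered 40 and 38 in wild type and 27 and 25 in mutant, and covered 16354 and 16462 bp against 15330 and 14164 bp. Both quantities were higher in each wild-type library than in either mutant library. The strongest region, chr9:48739856-48740661 (806 bp), lay within the gene far from both ends, with fold of 7.93 and 9.18 in wild type and 7.78 and 7.95 in mutant, at the 92.2 percentile or higher in every list. The region at the gene end, chr9:48834956-48836627, had fold of 4.90, 4.75, 3.80 and 4.19. The widest, 2636 bp at chr9:48804261-48806896, was listed as 3 peaks in each wild-type library and 1 in each mutant library.

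Zbtb16, with the longest window of the 10 (234 kb), held 34 of the 122 regions in both wild-type lists. It also had 6 of the 17 regions called only in wild type, 5 of them within the gene. The one with the highest lower fold was chr9:48732854-48733213 (360 bp, fold 3.17 and 3.11), near the middle of both wild-type lists (the 46.5 and 46.4 percentile). The nearest mutant peak lay 6642 bp away. A further 2 regions, chr9:48696266-48696585 and chr9:48720106-48720315, had fold of 4.08 and 3.98, and of 3.59 and 3.1, in wild type. In mutant 1 their fold was 2.00 and 2.01, near the 10 percentile of that list, and mutant 2 had no peak there.

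**Figure D2:**
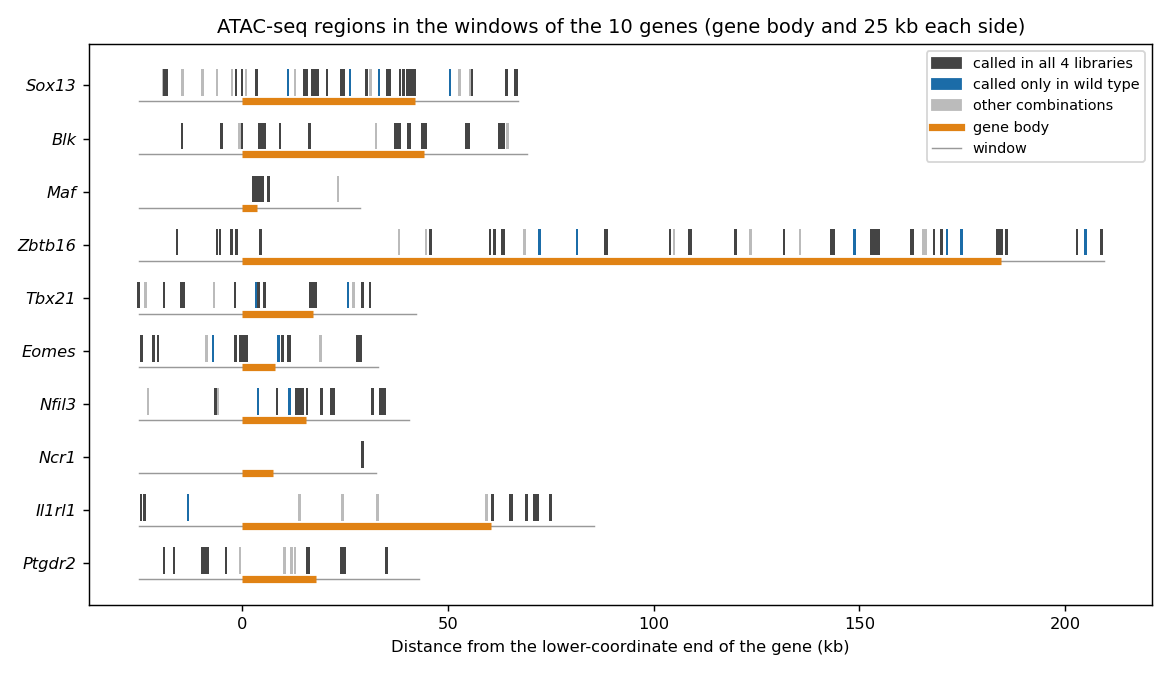
Regions in each window by distance from the lower-coordinate end of the gene in kb (x axis), 1 row per gene. Dark bars are regions called in all 4 libraries (95), blue bars those called only in wild type (17) and light bars other combinations (37), with bars under 0.6 kb drawn at that width, over an orange line for the gene body and a thin line for the window. Zbtb16 has 6 blue bars and Sox13 4, and Ncr1 has a single dark bar outside the gene.

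The T-box genes differed in layout. At Tbx21 the start region, chr11:97114381-97116154, was a single peak of 1667, 1695, 1716 and 1753 bp with fold of 5.65 and 5.92 in wild type and 5.87 and 5.97 in mutant. Of the regions in all 4 libraries, the one with the highest lowest fold lay 1362 bp beyond the other end of the gene (chr11:97096069-97096645, fold 9.16, 7.07, 6.47 and 6.44). It ranked first in wild type 1 only. Within the gene, the 569 bp region chr11:97101739-97102307 had fold of 6.51, 7.61, 6.54 and 5.47, the highest of the window in wild type 2. The region chr11:97126868-97127589, nearest to Tbkbp1, was the highest in both mutant libraries (7.37, 6.13, 7.10 and 7.12). Peaks numbered 14 and 10 in wild type and 9 and 9 in mutant, covering 6597 and 6119 bp against 5507 and 5996 bp. Only 2 narrow regions were called only in wild type, chr11:97101231-97101336 (106 bp, fold 2.09 and 2.25) and chr11:97123426-97123536 (111 bp, 2.3 and 2.49). The former lay 435 bp from a mutant peak.

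At Eomes the start itself fell between peaks in 3 of 4 libraries. The region chr9:118477502-118479707 (2206 bp) held a small upstream peak and a large peak over the first part of the gene. In wild type 1 the large peak was 1304 bp with fold 5.41, in wild type 2 it was 1357 bp with fold 5.40, and in mutant 2 it was 1165 bp with fold 5.60. Mutant 1 listed 1 peak of 2128 bp with fold 4.30 across both. The strongest region lay 2945 bp downstream of the gene (chr9:118489077-118490132, fold 6.89, 7.42, 6.01 and 6.91). Peaks numbered 14 and 14 in wild type and 8 and 9 in mutant, whereas covered length overlapped between genotypes (6670 and 6424 bp against 6860 and 6094 bp). Of 2 regions called only in wild type, chr9:118470853-118470980 (128 bp) had fold of 3.70 and 3.11 and lay 7206 bp upstream in the long non-coding RNA Gm33408. The other was chr9:118486729-118487135 (407 bp), with fold of 1.72 and 1.96.

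Nfil3 had 8 of 12 regions in every library. The start region, chr13:52980217-52982329, was 1956 and 2034 bp wide in wild type and 2110 and 2091 bp in mutant, with fold of 3.36, 3.28, 3.11 and 3.24. It was among the broadest regions of the 10 windows at a middling fold, between the 46.5 and the 50.5 percentile of the lists. The strongest region by its lowest fold, chr13:52998580-52999003, lay 15702 bp beyond the gene (4.26, 4.12, 4.65 and 5.43). Nfil3 had 14 and 12 peaks in wild type and 9 and 9 in mutant, covering 6356 and 6038 bp against 6136 and 5870 bp, so covered length overlapped. Called only in wild type were chr13:52970773-52970999 (227 bp, fold 2.92 and 2.25) and chr13:52978421-52978770 (350 bp, 1.66 and 1.58), both inside the gene.

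The receptor genes among the 10 had no listed start called in all 4 libraries, and most of the strong sites in their windows lay nearest to other genes. The listed starts of Il1rl1 and Ptgdr2 lie within the annotated genes, and with gene ends used Il1rl1 was called in all 4 libraries. Ncr1 had 1 region in 57.5 kb, the fewest of the 10. It lay 29019 bp from the first Ncr1 start at its closest, inside Gp6, the platelet collagen receptor gene (chr7:4366734-4367142). Its peak was 409 and 366 bp wide in wild type and 202 and 275 bp in mutant, and its fold was 11.54, 7.50, 3.52 and 4.16. Within the lists this was the 99.0, 92.5, 56.8 and 65.0 percentile of fold. This was the highest fold of any of the 149 regions in wild type 1. No test was made of fold between libraries, and percentiles in lists of different length cannot establish a change.

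Il1rl1 shares a cluster of interleukin 1 receptor genes with Il18r1 and Il1rl2. Of its 12 regions, 5 were nearest to Il18r1, 2 to Il1rl2 and 5 to Il1rl1 itself, and all 7 regions called in every library were among the neighbours'. The strongest of them by lowest fold, chr1:40465460-40466168, began 42 bp past the Il1rl1 gene and touched Il18r1 (fold 7.28, 6.80, 5.73 and 5.95). The widest, chr1:40475641-40477098 (1458 bp), also touched Il18r1 (fold 5.62, 4.76, 3.68 and 6.29) and was the strongest in mutant 2. The 4 regions within Il1rl1 were 111 to 259 bp wide with fold of 2.07 to 2.77. The upstream start was called through 1 of them, a peak 352 bp away in wild type 1 (fold 2.33) and 318 bp away in mutant 1 (fold 2.23). At the downstream start the closest peak was 2061 bp away. A region 13178 bp outside the gene, chr1:40391503-40391686 (184 bp), was called only in wild type with fold of 3.67 and 2.41, and no mutant peak lay within 10070 bp. Peaks numbered 13 and 11 against 10 and 9, covering 4164 and 3981 bp against 5051 and 3866 bp.

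At Ptgdr2 the start was called in wild type 1 alone, by a 79 bp peak of fold 1.73. This is narrower than any peak of the mutant 2 list, where the shortest is 87 bp. The nearest peaks to the start were 2215, 2901 and 2228 bp away in wild type 2, mutant 1 and mutant 2. The one region within the gene called in all 4 libraries was chr19:10940047-10941171 (1125 bp, fold 5.79, 6.48, 6.00 and 6.11). Of 11 regions, 5 were nearest to Ptgdr2, and the rest to Prpf19, Zp1, Ccdc86 or Ms4a10. The strongest, chr19:10959313-10960011, was nearest to Ms4a10, with fold of 7.79 to 8.84. The widest, chr19:10914479-10916581 (2103 bp, fold 3.97, 3.36, 3.50 and 3.78), touched Zp1, which encodes an egg coat protein. Peaks numbered 12, 9, 7 and 9 in wild type 1, wild type 2, mutant 1 and mutant 2, and covered length was 6327 and 6162 bp against 5821 and 5600 bp.

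By covered share of the window, the order was Sox13, Eomes (11.2% ± 0.571), Blk (10.3% ± 1.27), Nfil3 (9.29% ± 0.309), Tbx21 (8.99% ± 0.665), Ptgdr2 (8.79% ± 0.483), Zbtb16 (6.64% ± 0.457), Maf (5.25% ± 0.741), Il1rl1 (3.86% ± 0.487) and Ncr1 (0.545% ± 0.161), each as mean ± SD over the 4 libraries. The ranges of neighbours in this order overlapped from Eomes to Ptgdr2 and from Zbtb16 to Il1rl1. Sox13 stood above all others in every library and Ncr1 below all others. The median over protein-coding windows was 5.14% to 5.46% in the 4 libraries. Windows include the neighbours' sites named above, so the share belongs to the window and not to the gene alone.

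**Figure D3:**
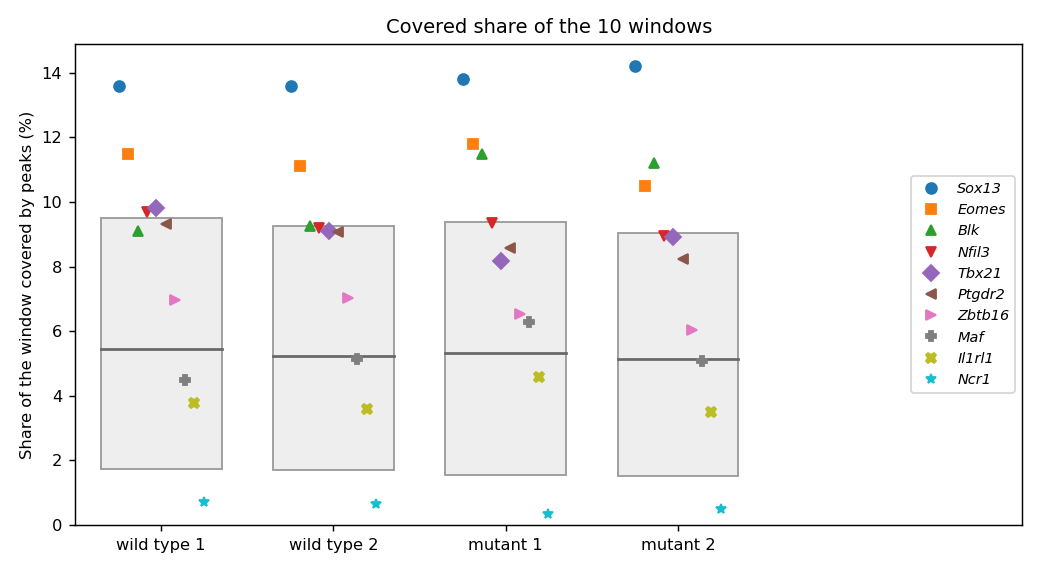
Share of each window covered by peaks in percent (y axis) in the 4 libraries (x axis). Symbols are the 10 genes, and the grey box and line give the quartiles and median over 21887 protein-coding windows. Sox13 is the highest and Ncr1 the lowest symbol in each library.

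Between genotypes, the windows held more peaks in wild type and nearly equal covered length. Peaks summed over the 10 windows were 155 and 139 in wild type and 104 and 106 in mutant (147 ± 11.3 against 105 ± 1.41, mean ± SD, n = 2 each). The mutant to wild-type ratio was 0.714, with an exact two-sided permutation p = 0.333, the smallest that 2 against 2 libraries can give. Over the whole lists the ratio was 0.737. Covered length was 70390 and 69602 bp in wild type and 71868 and 68277 bp in mutant, a ratio of 1.00 (exact permutation p = 1.00). In 6 of 10 windows both wild-type libraries had more peaks than both mutant libraries (Sox13, Zbtb16, Tbx21, Eomes, Nfil3 and Il1rl1), against 59.4% of protein-coding windows. Covered length was higher in both wild-type libraries at 4 genes (Zbtb16, Tbx21, Ncr1 and Ptgdr2), against 29.6% of windows, and higher in both mutant libraries at 2 (Sox13 and Blk), against 23.6%. With 10 windows, these counts are near the background.

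**Figure D4:**
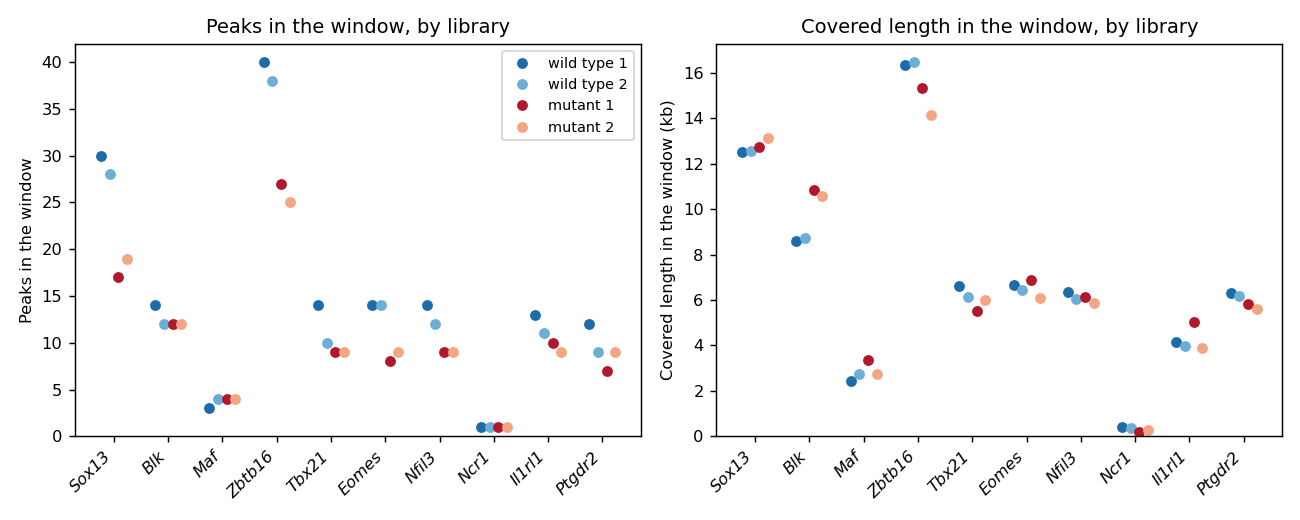
Number of peaks (left, y axis) and covered length in kb (right, y axis) in the window of each gene (x axis), 1 point per library. Zbtb16 has 40 and 38 peaks in wild type and 27 and 25 in mutant, while at Blk the mutant points stand above the wild-type points in covered length.

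Part of the surplus of wild-type peaks lay inside shared regions. Of the 95 regions called in all 4 libraries, 7 were listed as more peaks in both wild-type than in both mutant libraries, and 0 the other way round. They were 2 at Zbtb16, 2 at Eomes and 1 each at Sox13, Blk and Nfil3. The same count over all regions was not made. The whole lists also held fewer peaks in mutant (ratio 0.737), so these counts are not shown to be particular to the windows. The lists also differed in their smallest gap and shortest peak, and the settings behind them are not given. The smallest gap between peaks was 257 and 261 bp in wild type and 293 and 349 bp in mutant, and the shortest peak was 64 and 65 bp against 73 and 87 bp. With a common gap and minimum length, the ratio of peak numbers in the windows was 0.767.

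In the 10 windows, 17 regions were called in both wild-type libraries and neither mutant library, here named as called only in wild type, and 0 the other way round. These 17 made up 13.9% of the 122 regions that both wild-type lists held (95% exact binomial interval 8.33 to 21.4, counting error only), against 15.0% over all regions. Of the 96 regions that both mutant lists held, 0 were without a wild-type peak (interval up to 3.77%), against 1.75% over all regions. Regions called in all 4 libraries were 95 of 149 (63.8%), against 56.7% of all regions. Windows with a wild-type-only region were 6 of 10, against 57.1% of protein-coding windows. Each share lay near its background, and the difference was not tested. With equal numbers of peaks per list, the wild-type-only count fell to 6 (6.00%, against 4.92% over all regions). Without wild type 2 it was 34 (23.9%, against 25.4%), where wild type 1 alone decides.

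The 17 regions were narrow and weak. Their median width was 227 bp and their median lower fold 2.22, against 590 bp and 3.39 (lowest fold) for the 95 shared regions. Over all regions the contrast was alike. Those called only in wild type had medians of 176 bp and 2.36, and those in all 4 had 608 bp and 3.36. All 17 lay nearest to the member gene and 11 touched it. As merged regions, none was narrower than the shortest mutant peak, and none lay within the longest joining gap of a mutant peak. The closest mutant peak was 435 bp away and the median distance was 1997 bp. With a common gap and minimum length for all lists, 15 of 114 regions (13.2%) were called only in wild type, against 12.1% over all regions. In the lists as deposited, another 10 regions were called in both wild-type and 1 mutant library. Of 23 regions called in a single library, 17 were in wild type 1, 4 in wild type 2 and 1 in each mutant library. Depth is unknown, and where a library has no peak the site was not detected there, which does not show that it was closed. In bulk samples, fewer cells with an open site and less opening per cell cannot be told apart.

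**Figure D5:**
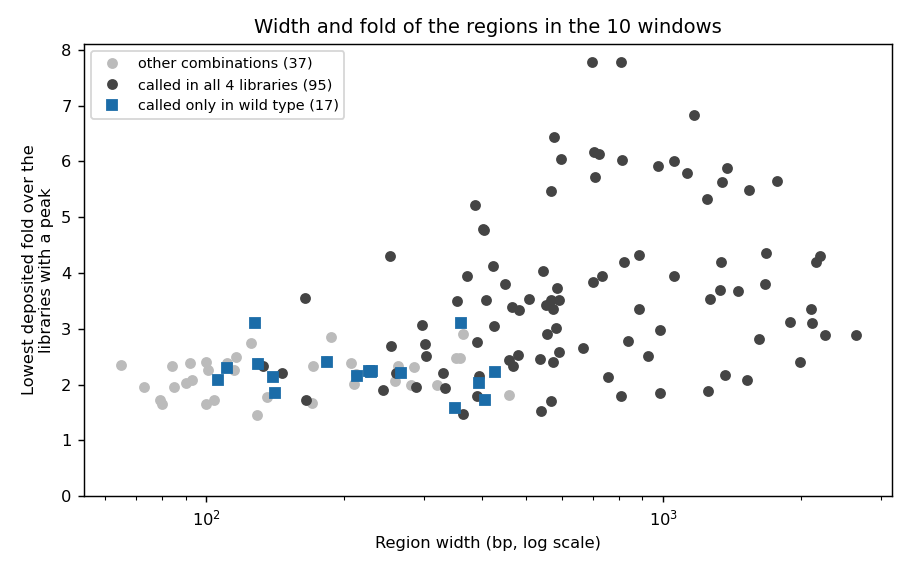
Width in bp on a log scale (x axis) and lowest deposited fold over the libraries with a peak (y axis) for the 149 regions. Blue squares are the 17 regions called only in wild type, which stay at or below a fold of 3.11 and a width of 429 bp, and dark points are the 95 regions called in all 4 libraries.

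Most other genes of the same programme had a called start, as did 66.8% of all protein-coding genes in all 4 libraries. Of 30 such genes, among them Tcf7, Id2, Id3, Il2rb and Klrb1c, 27 had a start called in all 4 libraries, with a median covered share of 8.80% against 8.89% for the 10 members. Both wild-type lists held 520 regions of these genes, and 55 of them (10.6%) had no mutant peak, against 15.0% over all regions. Of 455 regions in both mutant lists, 2 (0.440%) had no wild-type peak, against 1.75% over all regions. The Il18r1 window in this list shares regions with that of Il1rl1. Of 10 core T-lineage factors, including Gata3, Bcl11b and Runx1, all 10 had a start called in every library. Their median covered share was 14.6%. Their wild-type-only share was 13.9% (49 of 352 regions) and their mutant-only share 2.61% (8 of 306), beside the same 15.0% and 1.75%. None of these differences was tested. Gata3 and Tcf7 are in both lists.

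As a check of the labelled cells, 10 of 10 DN3 genes, including Ptcra, Il2ra and Rag1, had called starts in every library. Over all protein-coding genes the share was 66.8%. Of 5 genes each, starts were called in all 4 libraries for 3 B-cell, 3 myeloid, 2 erythroid and 2 thymic stroma genes. None was called in any library at Ms4a1, Gata1, Hba-a1, Hbb-bs, Psmb11 or Krt5. Of 5 genes of natural killer and innate lymphoid cells, Klrb1c and Eomes were called in every library, and Ncr1, Eomes and Il1rl1 of that list are members here. The myeloid genes had 5 of 5 starts called in each wild-type and 3 of 5 in each mutant library, the difference being Mpo and Csf1r. Their part in the wild-type-only regions was not tested.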

How the data were processed

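ATAC-seq peak lists of 4 DN3 libraries were used. The authors deposited 1 broad peak list per library, with fold (a ratio of signal to local background), −log10 p and −log10 q per peak, and a score that is −log10 q times 10. MACS2 2.1.1, SAMtools 1.7, Bowtie2 2.3.3.1 and cutadapt 1.16 are named, per the submitters' processing notes, with build mm10 (GRCm38). The sources used here do not give settings or read shifting. Only the autosomes, X and Y were kept. Lists held 119023 to 169255 peaks and covered 69.3 to 72.3 Mb. Without read counts, depth and the precision it gives are unknown.

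Regions were the union of overlapping peaks across the lists, and a library had a region if any peak overlapped it by 1 bp. Gene positions and starts came from RefSeq tables (GRCm38.p6), in which all members and list genes matched by symbol. Both gene ends were used for the 4395 of 21887 protein-coding genes without a listed start. Exons and untranslated regions were not annotated. Peaks and covered length per library were compared by an exact two-sided permutation test. Shares of regions were set beside the same share over all regions, without a test. The members, gene lists and alternatives were chosen with earlier results of these data known, and CG dinucleotides were counted after the data were seen. Named were all 10 members with their start region, their strongest (by lowest fold) and widest region called in all 4 libraries, and regions of 1 genotype with fold of 2 or more in both libraries (the strongest alone where more than 3). A further 11 regions, shown at Sox13, Maf, Zbtb16, Tbx21, Eomes, Nfil3 and Ptgdr2, were picked after their values were seen. The Blk window's region nearest to Fam167a was picked likewise. The code was tested on simulated lists. Computation used scipy 1.17.1, pandas 2.3.3 and numpy 2.4.6 under Python 3.11.15. Alternatives were other windows, stricter peaks, equal peak numbers, a common gap and minimum length, 50% cover, leaving out each library and, added after seeing the data, only regions nearest to the member gene.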

Additional observations from a re-analysis of the deposited data

How the results depend on the processing

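The ratio of peak numbers stayed below 1 under every alternative run (0.658 to 0.924, the latter with equal numbers of peaks), with an exact permutation p of 0.333 or 0.500 throughout. The covered-length ratio of 1.001 had no stable side, at 0.984 for the gene body alone, 0.911 at fold of 4 or more and 0.976 with a common gap and minimum length, and 0.975 to 1.027 when 1 library was left out. It was 1.105 with equal numbers of peaks and 1.080 at −log10 q of 5 or more (exact permutation p = 0.333 for both), and 1.020 and 1.018 with 10 and 50 kb flanks. With the replicate number as a replicate block the ratios were 0.715 for peaks and 1.001 for covered length (exact sign-flip p = 0.500, the smallest that 2 pairs allow, and 1.00). Deviations of same-numbered libraries had a correlation of -0.0845 over 21887 windows, so the numbers were not treated as pairs.

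Regions called only in wild type numbered 11 in the gene body alone, 3 when fold had to reach 4, 8 when −log10 q had to reach 5, and 6 with equal numbers of peaks, where their share was 6.00% against 4.92% over all regions. At fold of 4 or more it was 6.67% against 19.7%, and a region then counted may hold a weaker mutant peak. Without 1 library the count was 21 to 34, the highest without wild type 2, when a region of wild type 1 alone suffices. Regions called only in mutant were 1 with 50 kb flanks, 1 at fold of 4 or more, 4 with 50% cover and 0 to 1 without 1 library. Regions in all 4 libraries were 45 in the gene body alone and 30 at fold of 4 or more, and 4 genes then had a called start. Counting only regions nearest to the member gene, the wild-type-only count was 17 of 98 (17.3%). Depth limits each absent call, since peak lists show only what passed a threshold in that library.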

Other observations

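Outside the members, 3 of the 30 other genes of the programme lacked a start called in every library. Il23r, a receptor subunit for interleukin 23, had no called start in any library although its window held 19 regions. Rora, a nuclear receptor of group 2 innate lymphoid cells, and Ccr6, a chemokine receptor, had a start called in wild type 1 only, as Ptgdr2 did. The Rora window held 74 regions at a covered share of 4.49%, and that of Ccr6 16 regions at 9.10%. Rora and Ccr6 were the only genes of that list with a start called in 1 library.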
